A study of Mus musculus with 9 samples.

Results

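The transcripts described are those of 31 genes of DNA replication and S phase, out of 17097 genes measured. They were chosen by name. A gene entered when the platform annotation gave a probe set its symbol and no other, and where a gene had several probe sets the brightest on average over the 9 arrays was used. All 31 listed genes were found. Basal cells of the interfollicular epidermis (IFE) were sorted from the tail skin of mice 4 days after a wound of 3 mm in diameter. They were profiled on Affymetrix mouse arrays, with 300 cells per array. The 3 regions had 3 arrays each. The leading edge (LE) is the front of epidermis that moves into the wound, and its cells were positive for α5-integrin and came from a punch of 4 mm around the wound. The proliferative hub lies behind it, and its cells were negative for α5-integrin. The methods name CD1 mice and a hub punch of 6 mm with an earlier set of samples, and not separately for these arrays. Control cells came from tail skin far from the wound of wounded mice, and no gate on α5-integrin is named for them. Every sort took cells with α6-integrin and without CD34, a marker of the hair follicle bulge. A contrast of a wound region with control therefore joins the wound, the region and the gate, which cannot be told apart. The labels call the replicates biological and the methods call them technical, so the p-values measure the spread between these arrays, which may be technical.

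Before S phase, replication origins are licensed when the origin recognition complex, Cdc6 and Cdt1 load a ring of MCM proteins onto DNA. At the start of S phase Cdc45 and the GINS complex turn this ring into an active helicase, and primase, polymerases, the sliding clamp and a supply of deoxynucleotides then allow the genome to be copied. Many of these genes are transcribed from the end of G1 into S phase under E2F transcription factors, and in the epidermis most division takes place in the basal layer.

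The sort could be followed on the arrays. Itga5, which encodes α5-integrin, read 9.06 to 9.17 at the LE, 6.46 to 7.47 in the hub and 6.23 to 6.50 in control, on the log2 scale used throughout. The basal keratin genes Krt5 and Krt14 lay between 13.2 and 13.3 on every array. Itga6, which encodes α6-integrin, did not: it read 11.52 to 11.64 in control, 11.76 to 11.83 in the hub and 12.25 to 12.31 at the LE. Of 6 basal markers, Itga6 and Itgb4 rose at the LE against control (0.69 and 0.34) and against the hub (0.47 and 0.38), and 0 fell. Cd34 stayed between 4.50 and 4.95, under 6.35, the 75th percentile of the 23 probe sets for nonspecific background. Those background probe sets reached 8.61 at most. At such low values Cd34 cannot show whether bulge cells were left out alike in all groups. Of 6 bulge and follicle markers, Cd34 among them, Nfatc1 fell in the hub against control (-0.39). At the LE Nfatc1 (-0.48) and Krt75 (-0.83) fell, and 0 rose in either region. Of 12 markers of myeloid cells, 5 rose at the LE against control, and their mean read 7.35, 6.88 and 7.36 on LE arrays 1 to 3, 6.64 to 6.71 in the hub and 6.16 to 6.42 in control. The 5 were Lyz2, Cd14, Cxcr2, S100a8 and S100a9, of which the last pair are also made by keratinocytes of wounds. In the hub S100a8 was 2.51 and S100a9 1.48 above control, while the median difference of the list was 0.07. Of the 12, 3 lay under that percentile on all 9 arrays, Itgam, Fcgr3 and Adgre1. The mean of the endothelial markers reached 7.48 on LE array 1 and lay between 6.09 and 6.85 on the others. Of 6 suprabasal markers, Krt1, Krt10 and Krtdap fell at the LE against control and Ivl rose, and their mean was 8.57 to 9.04 at the LE and 9.22 to 9.47 on the other arrays. Of 5 Langerhans cell markers H2-Ab1 rose at the LE, by 2.34, and their mean was 7.42 to 8.13 there and 7.01 to 7.21 elsewhere. The other 4 did not pass the test at the LE against control: Epcam (0.24), Cd74 (0.16), H2-Aa (-0.03) and Cd207 (-0.10). In the hub Epcam fell, with a difference of -0.80 from control. The difference between the 3′ and 5′ probe sets of β-actin, a sign of RNA integrity, was -0.39 to -0.28 at the LE and -0.51 to -0.45 on the other arrays. For Gapdh it was -0.09 to -0.03 at the LE and -0.13 to -0.06 on the other arrays, so the ranges overlapped. The part of these differences in the results below was not tested.

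Replication genes stood higher in the hub than in control skin. Of the 31 genes, 13 rose and 0 fell (limma, Benjamini-Hochberg adjusted p under 0.05), against a background of 4.16% of all genes higher and 3.12% lower. The median difference was 0.33 on the log2 scale, with 29 genes above 0, while the median over all genes was 0.03. The largest rises were in the GINS subunit Gins1, by 1.12, and in the ribonucleotide reductase subunit Rrm2, by 0.83. In RNA from sorted cells, more cells in S phase and more RNA per such cell cannot be told apart. The groups did not overlap for 18 genes that were higher in the hub (background 14.4%) and for 1 that was lower (background 9.41%). The lower one was Pola1, the catalytic subunit of DNA polymerase α, with a difference of -0.08 that did not pass the test.

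The LE also stood above control. Here 10 genes rose and 0 fell, against a background of 11.9% higher and 10.8% lower, and the median difference was 0.21 with 26 genes above 0. The median over all genes was 0.02. For 11 genes every LE array was above every control array (background 20.0%), and for 0 genes below (background 16.2%). Rrm2 and Gins1 again had the largest rises, 1.18 and 0.99. The 2 contrasts share the control arrays and are not independent. Rises in both wound regions were called for 8 genes, Mcm3, Mcm4, Mcm5, Mcm10, Gins1, Fen1, Rrm1 and Rrm2. The share of all genes that rose in both was not counted, so the 8 are named as a list only. Counts by role below stand against the background shares given for each contrast.

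The direct contrast of LE with hub is the test of whether the cells sorted from these regions differ. In it the region and the gate on α5-integrin cannot be told apart. Only Rrm2 was higher at the LE and only Cdt1 lower, against a background of 5.39% and 5.23%, so that the number of calls was close to that over all genes. The groups did not overlap for 1 gene higher at the LE (background 14.5%) and for 5 lower (background 15.4%), which were Cdt1, Mcm6, Prim1, Tk1 and Dtl. The median difference was -0.10, with 20 genes below 0, and over all genes it was -0.01. At an unadjusted p under 0.05, 2 genes were higher (6.45%) and 7 lower (22.6%), and over all genes the shares were 10.9% and 11.8%. All 31 intervals of 95% lay within 2-fold in either direction. For the 29 genes that missed the threshold they reached from -0.86 to 0.45.

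**Figure D1:**
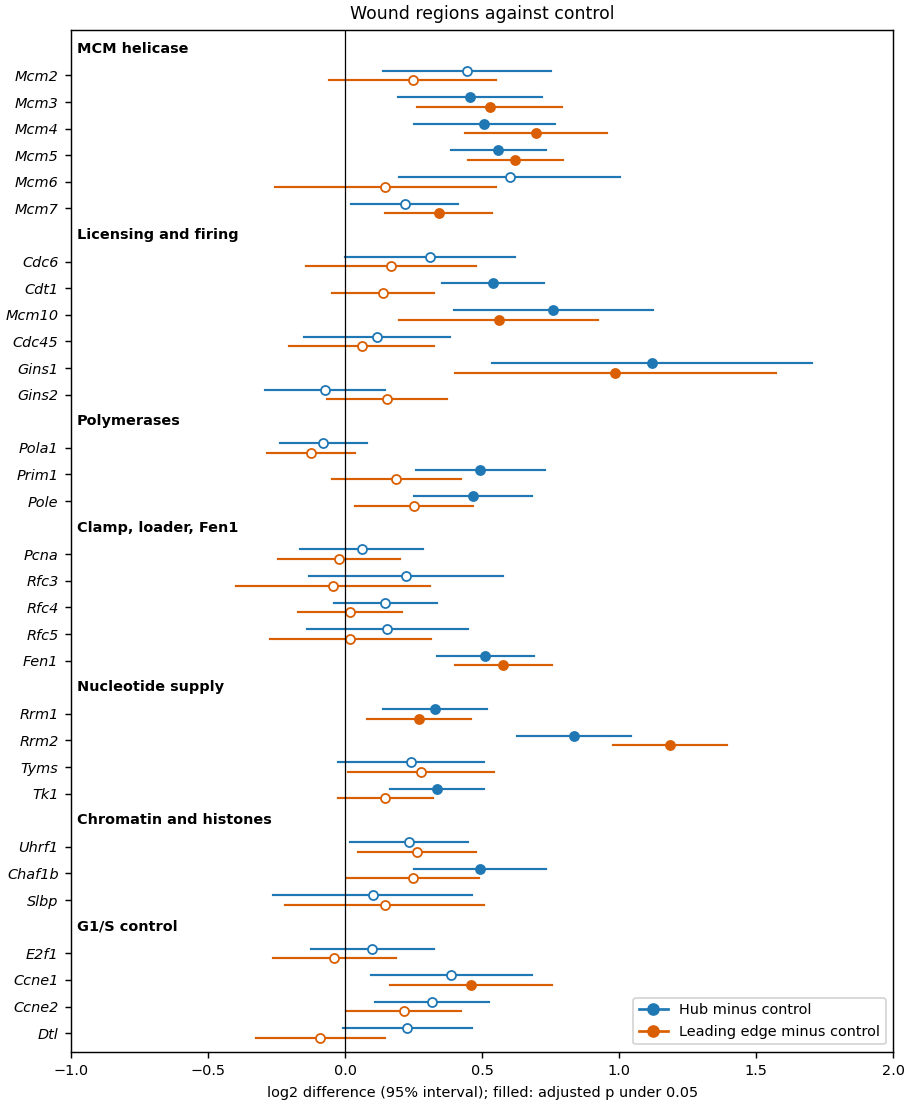
Difference of each wound region from control on the log2 scale (horizontal axis) for the 31 genes, grouped by role. Points are differences of means of 3 arrays, lines are 95% intervals from limma, and filled points passed the adjusted threshold: 13 genes in the hub and 10 at the LE, all to the right of 0.

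Promoter sequence was not used to choose the members. Promoter windows from 250 bases before to 50 after the annotated start were taken from RefSeq, build GRCm38.p6, where 26 of the 31 genes had one. An E2F core, searched as TTCCCGC and as TTGGCGC on both strands, was present for 14 of the 26 genes (53.8%) and for 7.79% of the 27025 genes in the table. The CCAAT box, searched as CCAAT on both strands, was present for 16 (61.5%), and for 41.1% of all genes. Both motifs were also found in other lists. The core was present in the further replication genes described at the end at a like share (54.0% of 50), and the CCAAT box was found for 21 of 26 mitosis genes (80.8%) and 9 of 15 genes that hold the cell cycle back. The members' windows were also richer in GC, with a median of 61.2% against 52.8%. A match is a description of the letters and not evidence that a factor binds there.

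Promoters with and without a rise are given here to set the letters beside the values that follow. Each run holds the 180 bases before the start, 5′ to 3′ on the gene's strand, with matches to the E2F core or the CCAAT box in capitals. Mcm5 (chr8:75109329-75109508 on the plus strand) rose in both wound regions, and Mcm6 (chr1:128359706-128359885 on the minus strand) is a subunit of the same helicase that passed no test.
Mcm5: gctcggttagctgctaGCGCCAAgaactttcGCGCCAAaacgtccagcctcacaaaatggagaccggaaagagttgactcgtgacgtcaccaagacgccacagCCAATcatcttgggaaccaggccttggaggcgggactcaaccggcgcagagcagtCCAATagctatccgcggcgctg
Mcm6: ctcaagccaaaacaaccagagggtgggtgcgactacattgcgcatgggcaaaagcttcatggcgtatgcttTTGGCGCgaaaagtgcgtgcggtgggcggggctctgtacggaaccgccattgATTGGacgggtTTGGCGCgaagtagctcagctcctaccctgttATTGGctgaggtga
Both hold 2 E2F cores, at 164 and 149 bases before the start in Mcm5 and at 109 and 46 bases in Mcm6. Rrm1 (chr7:102441515-102441694 on the plus strand) and Rrm2 (chr12:24708074-24708253 on the plus strand) encode the subunits of one enzyme.
Rrm1: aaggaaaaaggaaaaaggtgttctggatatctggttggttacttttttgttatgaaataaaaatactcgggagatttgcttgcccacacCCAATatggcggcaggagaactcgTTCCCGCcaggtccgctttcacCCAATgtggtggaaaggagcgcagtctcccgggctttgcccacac
Rrm2: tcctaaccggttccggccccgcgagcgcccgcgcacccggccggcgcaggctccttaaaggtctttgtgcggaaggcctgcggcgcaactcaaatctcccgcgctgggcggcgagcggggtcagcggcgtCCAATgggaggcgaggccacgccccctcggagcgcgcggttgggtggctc
The window of Rrm1 holds an E2F core 67 bases before the start and that of Rrm2, the gene with the highest differences at the LE, holds 0 matches to it and 1 CCAAT box. Prim1 (chr10:128015035-128015214 on the plus strand) rose in the hub, while Dtl (chr1:191575545-191575724 on the minus strand) and Pcna (chr2:132253181-132253360 on the minus strand) passed no test.
Prim1: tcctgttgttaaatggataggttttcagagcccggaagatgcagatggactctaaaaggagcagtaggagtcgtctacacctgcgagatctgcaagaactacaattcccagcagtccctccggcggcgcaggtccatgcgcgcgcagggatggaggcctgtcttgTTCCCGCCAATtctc
Dtl: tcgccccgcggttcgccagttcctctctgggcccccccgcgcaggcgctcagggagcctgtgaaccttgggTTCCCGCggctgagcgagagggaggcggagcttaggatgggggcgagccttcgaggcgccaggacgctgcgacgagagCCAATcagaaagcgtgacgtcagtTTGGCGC
Pcna: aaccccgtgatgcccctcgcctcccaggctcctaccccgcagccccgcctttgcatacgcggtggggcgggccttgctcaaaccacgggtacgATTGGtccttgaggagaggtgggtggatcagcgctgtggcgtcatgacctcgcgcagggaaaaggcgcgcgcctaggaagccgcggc
In Prim1 the E2F core and the CCAAT box overlap. Dtl holds 2 E2F cores, at 109 and 7 bases before the start, and Pcna holds a CCAAT box alone. The core was present for 7 of the 12 genes with a promoter that rose in at least 1 wound region, and for 7 of the 14 that did not.

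All 6 subunits of the MCM helicase had positive differences in both wound regions, and 3 rose in the hub and 4 at the LE. Mcm4 read 8.60, 8.81 and 8.79 in control, 9.25, 9.09 and 9.38 in the hub and 9.63, 9.25 and 9.41 at the LE. Every wound array was above every control array, and the wound regions overlapped. Mcm4 thus rose by 0.51 ± 0.11 (SE) in the hub (adjusted p = 0.0282) and by 0.70 ± 0.11 at the LE (adjusted p = 0.00183). Mcm5 read 11.08, 11.27 and 11.26 in control, 11.84, 11.71 and 11.73 in the hub and 11.85, 11.76 and 11.86 at the LE. Its wound arrays were again all above control, by 0.56 ± 0.08 in the hub (adjusted p = 0.00297) and 0.62 ± 0.08 at the LE (adjusted p = 0.000344). Mcm3 rose by 0.46 ± 0.12 in the hub (adjusted p = 0.0477) and 0.53 ± 0.12 at the LE (adjusted p = 0.00977). Mcm7 rose at the LE by 0.34 ± 0.09 (adjusted p = 0.019), while its hub difference was 0.22 (adjusted p = 0.2). A slightly dimmer probe set of Mcm7 had the other order, with 0.50 in the hub (adjusted p = 0.0875) and 0.28 at the LE (adjusted p = 0.233). With the mean of all probe sets the LE call of Mcm7 was lost (difference 0.31, adjusted p = 0.0682).

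The subunits Mcm2 and Mcm6 passed no test on the probe sets used. Mcm6 was 0.60 ± 0.18 above control in the hub, with an interval of 0.20 to 1.00 (adjusted p = 0.0837), and 0.15 ± 0.18 at the LE (adjusted p = 0.633). Its hub arrays were all above its LE arrays. Mcm2 was 0.44 above control in the hub (adjusted p = 0.0911) and 0.25 at the LE (adjusted p = 0.251). A dimmer probe set of Mcm2, tested with all probe sets of 1 gene symbol, rose by 0.38 in the hub (adjusted p = 0.0248) and 0.37 at the LE (adjusted p = 0.00932). Within the helicase the calls of Mcm5 in both regions, and of Mcm3 and Mcm4 at the LE, held when any 1 array was left out. The hub call of Mcm3 ended without any of 8 arrays, hub array 2 being the exception (adjusted p up to 0.162), and that of Mcm4 without hub arrays 1 or 3 or control arrays 1 or 3 (up to 0.108). That of Mcm7 at the LE ended without LE array 1 or control arrays 1 or 2 (up to 0.0606).

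**Figure D2:**
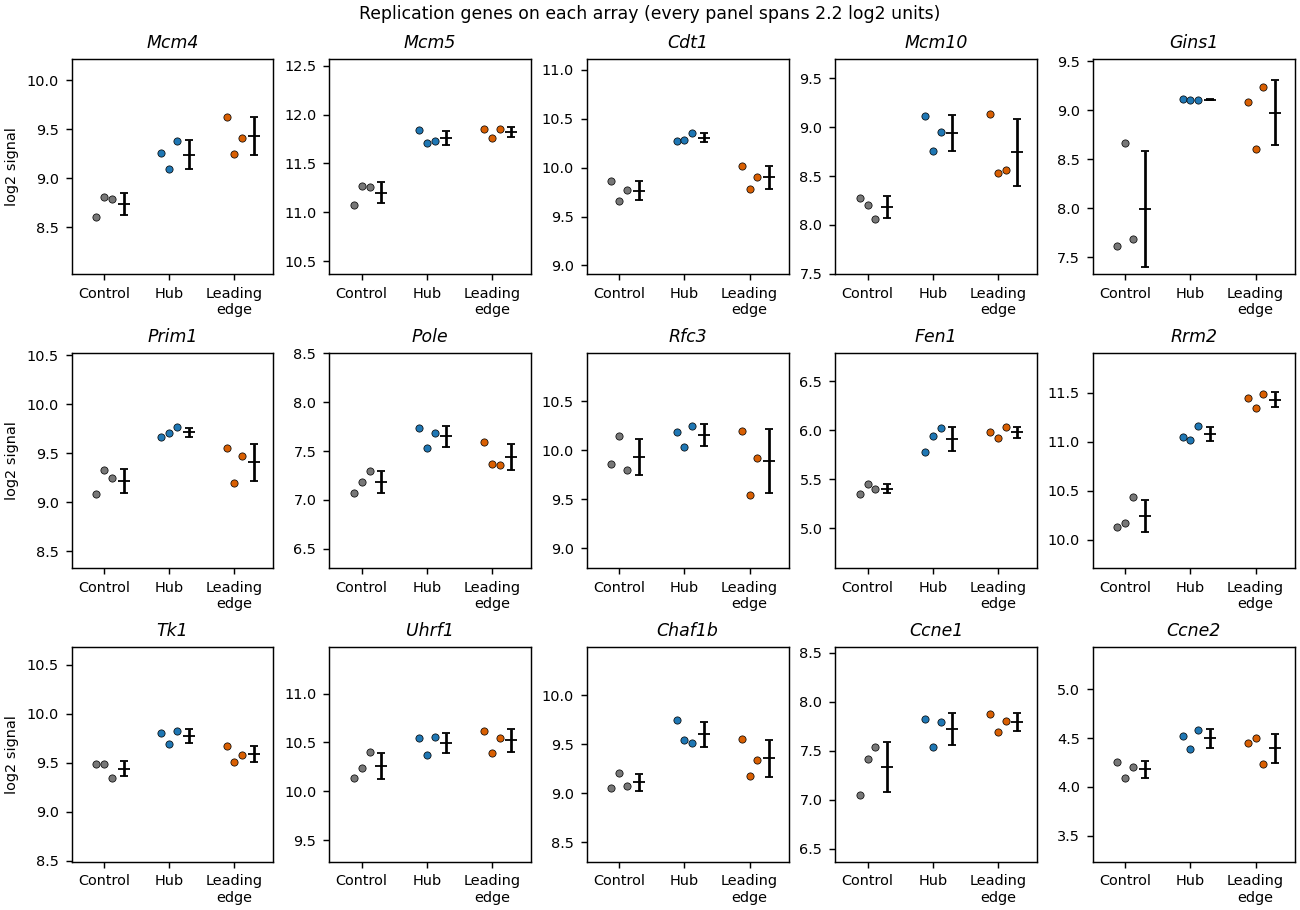
Log2 signal (vertical axis) on each of the 3 arrays of control, hub and LE for the 15 genes whose values are given in full. Points are single arrays and the bars beside them are the mean and SD; for Mcm5, Fen1 and Rrm2 all wound arrays lie above all control arrays, and for Cdt1 the hub arrays lie above both other groups.

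Of 6 factors of licensing and origin firing, 3 rose in the hub and 2 at the LE. Cdt1, which loads the helicase at origins, read 9.86, 9.66 and 9.77 in control, 10.27, 10.28 and 10.36 in the hub and 10.02, 9.78 and 9.90 at the LE. The hub arrays stood above all others, and LE overlapped with control. Cdt1 rose by 0.54 ± 0.08 in the hub (adjusted p = 0.00478), was 0.14 ± 0.08 above control at the LE (adjusted p = 0.295), and was lower at the LE than in the hub by 0.40 ± 0.08 (difference -0.40, adjusted p = 0.0132). That last call ended without LE array 2 (difference -0.34, adjusted p = 0.0547) or hub array 3 (-0.38, adjusted p = 0.0529). A dimmer probe set of Cdt1 had a difference of -0.29 between LE and hub (adjusted p = 0.272), and a rise of 0.60 in the hub over control (adjusted p = 0.0345). With the mean of all probe sets the difference between LE and hub was -0.26 (adjusted p = 0.0508).

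Mcm10, which helps to start the helicase, read 8.28, 8.21 and 8.06 in control, 9.11, 8.75 and 8.95 in the hub and 9.14, 8.53 and 8.56 at the LE. Each wound array was above each control array, and LE array 1 stood apart from the other two of its group. Mcm10 rose by 0.76 ± 0.16 in the hub (adjusted p = 0.0218) and 0.56 ± 0.16 at the LE (adjusted p = 0.0334). The hub call ended without hub arrays 1 or 3 or control array 3 (adjusted p up to 0.0746), and the LE call without LE array 1 (difference 0.36, adjusted p = 0.0633) or control arrays 2 or 3 (up to 0.0964).

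Gins1, a subunit of the GINS complex of the active helicase, read 7.61, 8.67 and 7.69 in control, 9.12, 9.10 and 9.11 in the hub and 9.09, 8.61 and 9.23 at the LE. The hub arrays were nearly equal and above control, whereas control array 2 was above LE array 2. Its rises of 1.12 ± 0.26 (2.17-fold, adjusted p = 0.0316) and 0.99 ± 0.26 (1.98-fold, adjusted p = 0.0223) had the largest SE of the called genes. Without control array 2 they became 1.46 and 1.33. The hub call ended without LE array 1, any hub array, or control arrays 1 or 3 (adjusted p up to 0.0933), and the LE call without LE arrays 1 or 3 or control arrays 1 or 3 (up to 0.0869). Of the other subunits of the complex, Gins2 had a difference of -0.07 in the hub (adjusted p = 0.786) and 0.15 at the LE (adjusted p = 0.328). A dimmer probe set of Gins2 gave -0.16 in the hub (adjusted p = 0.414) and -0.24 at the LE (adjusted p = 0.0971). The sign at the LE thus depended on the probe set. Gins4, which belongs to the further replication genes, rose in both regions, by 0.35 (adjusted p = 0.0355) and 0.42 (adjusted p = 0.00571), while Gins3 had differences of 0.03 and -0.14 (adjusted p = 0.914 and 0.394). Cdc45, a further part of the active helicase, was 0.12 above control in the hub (adjusted p = 0.697) and 0.06 at the LE (adjusted p = 0.776). Cdc6, a helicase loader, was 0.31 above in the hub (adjusted p = 0.26), but read 5.24 to 5.92, under the 75th percentile of background on every array.

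Of the polymerase genes, Prim1 and Pole rose in the hub. Prim1 encodes the catalytic subunit of primase, which makes the RNA primers, and read 9.09, 9.33 and 9.24 in control, 9.67, 9.71 and 9.77 in the hub and 9.56, 9.19 and 9.47 at the LE. Its hub arrays were above all others, and its LE arrays overlapped with control. The rise in the hub was 0.49 ± 0.10 (adjusted p = 0.0216). The LE difference from control was 0.19 (adjusted p = 0.256), and that from the hub was -0.31 ± 0.10, which missed the threshold (adjusted p = 0.105). Pole, the catalytic subunit of the leading-strand polymerase ε, read 7.07, 7.18 and 7.30 in control, 7.74, 7.53 and 7.69 in the hub and 7.59, 7.36 and 7.35 at the LE. Control was below both wound regions on all arrays. Pole rose by 0.47 ± 0.10 in the hub (adjusted p = 0.0189), and its LE difference was 0.25 ± 0.10 (adjusted p = 0.0966). All 3 group means of Pole lay above the 75th percentile of background (6.35) but under its highest value (8.61). The same held for Pola1, Cdc45, E2f1, Ccne1 and Dtl. The hub call of Prim1 ended without any hub array or control array 1 (adjusted p up to 0.0816), and that of Pole without hub arrays 1 or 3 or control array 1 (up to 0.0716). Pola1 had differences of -0.08 and -0.12 in the hub and at the LE (adjusted p = 0.644 and 0.269).

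Of 5 genes of the sliding clamp, its loader and fragment processing, 1 rose, in both wound regions. Pcna, the clamp that holds polymerases on DNA, differed from control by 0.06 ± 0.10 in the hub (adjusted p = 0.835) and -0.02 ± 0.10 at the LE (adjusted p = 0.906), with intervals of -0.16 to 0.28 and -0.25 to 0.20. Rfc3, a subunit of the clamp loader, read 9.86, 10.14 and 9.80 in control, 10.18, 10.03 and 10.25 in the hub and 10.20, 9.54 and 9.92 at the LE. The 3 groups overlapped, and LE array 2 gave the lowest value. Its differences were 0.22 ± 0.16 in the hub (adjusted p = 0.532) and -0.04 ± 0.16 at the LE (adjusted p = 0.889). The loader subunits Rfc4 and Rfc5 were both 0.15 above control in the hub (adjusted p = 0.402 and 0.616) and both 0.02 above it at the LE. Fen1, the nuclease that trims Okazaki fragments, was that gene. It read 5.35, 5.45 and 5.40 in control, 5.78, 5.94 and 6.02 in the hub and 5.99, 5.92 and 6.03 at the LE, with no overlap of wound and control arrays. Fen1 rose by 0.51 ± 0.08 (adjusted p = 0.00478) and 0.58 ± 0.08 (adjusted p = 0.000593), and no single array ended either call. All of its values lay under the 75th percentile of background, where differences are compressed.

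Nucleotide supply held Rrm2, the member with the lowest adjusted p in both contrasts with control. Rrm2, the small subunit of ribonucleotide reductase that is made in S phase, read 10.13, 10.17 and 10.43 in control, 11.05, 11.02 and 11.16 in the hub and 11.45, 11.34 and 11.49 at the LE. The 3 groups did not overlap, and their order was control, hub and LE. Rrm2 rose by 0.83 ± 0.09 in the hub (1.78-fold, adjusted p = 0.000982) and by 1.18 ± 0.09 at the LE (2.27-fold, adjusted p = 1.82e-05), and no single array ended these calls. The step from hub to LE was 0.35 ± 0.09 (adjusted p = 0.0406), and this call ended without any single LE or hub array (adjusted p up to 0.131), with a difference of at least 0.32 each time. A further probe set of Rrm2 gave 1.00 in the hub, 1.47 at the LE and 0.47 between them (adjusted p = 0.000767, 1.2e-05 and 0.0201).

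Rrm1, the large subunit of the enzyme, rose by 0.33 ± 0.09 in the hub (adjusted p = 0.0474) and 0.27 ± 0.09 at the LE (adjusted p = 0.0453). Both calls were close to the threshold: that in the hub ended without any array but hub array 2 (adjusted p up to 0.165), and that at the LE without any array but hub arrays 2 and 3 (up to 0.124). Tk1, thymidine kinase, read 9.49, 9.49 and 9.35 in control, 9.80, 9.69 and 9.83 in the hub and 9.67, 9.51 and 9.58 at the LE. The groups lay apart, with hub above LE and LE above control. The rise in the hub was 0.33 ± 0.08 (adjusted p = 0.0295) and ended without hub arrays 1 or 3 or control array 3 (up to 0.114), while the LE difference from control was 0.15 (adjusted p = 0.218) and that from the hub -0.19 (adjusted p = 0.177). Tyms, thymidylate synthase, was 0.24 above control in the hub (adjusted p = 0.317) and 0.28 at the LE (adjusted p = 0.134).

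**Figure D3:**
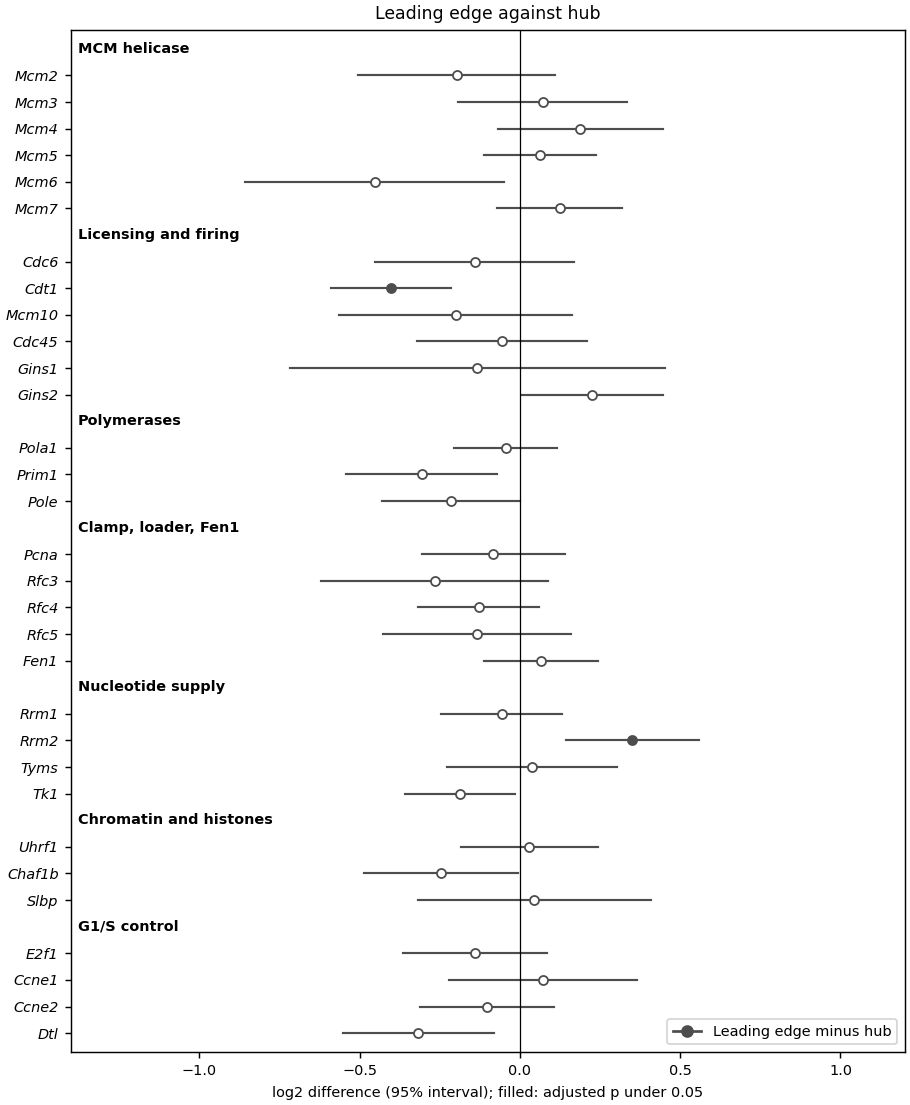
Difference of LE from hub on the log2 scale (horizontal axis) for the 31 genes by role, with 95% intervals from limma. The filled points, Rrm2 at 0.35 and Cdt1 at -0.40, passed the adjusted threshold, and 20 points lie to the left of 0.

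Genes that restore chromatin behind the fork gave 1 call. Chaf1b, a subunit of the histone chaperone CAF-1, read 9.05, 9.20 and 9.08 in control, 9.75, 9.54 and 9.51 in the hub and 9.55, 9.18 and 9.34 at the LE. The hub arrays were above control, and LE overlapped with both. Chaf1b rose by 0.49 ± 0.11 in the hub (adjusted p = 0.0239), a call that ended without any hub array or control arrays 1 or 3 (up to 0.0795), and was 0.25 ± 0.11 above control at the LE (adjusted p = 0.14). A dimmer probe set of Chaf1b had a difference of -0.11 in the hub (adjusted p = 0.544). Uhrf1, which guides maintenance of DNA methylation, read 10.14, 10.23 and 10.40 in control, 10.54, 10.37 and 10.56 in the hub and 10.62, 10.39 and 10.55 at the LE. In each wound region array 2 lay below the highest control array, so the groups overlapped. Its differences of 0.23 (adjusted p = 0.21) and 0.26 (adjusted p = 0.0808) missed the threshold, whereas a dimmer probe set passed it, by 0.38 in the hub (adjusted p = 0.0444) and 0.37 at the LE (adjusted p = 0.0187). Slbp, which binds the stem-loop of histone mRNAs, was 0.10 and 0.14 above control (adjusted p = 0.83 and 0.597).

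Among genes that govern entry into S phase, Ccne1 rose at the LE. Ccne1, a cyclin E that activates Cdk2, read 7.05, 7.41 and 7.53 in control, 7.83, 7.54 and 7.80 in the hub and 7.88, 7.69 and 7.80 at the LE. Both wound regions were above control on all arrays, though hub array 2 (7.54) and control array 3 (7.53) nearly met. The LE difference was 0.46 ± 0.13 (adjusted p = 0.0316), a call that ended without any LE array or control array 1 (up to 0.098), and the hub difference was 0.39 ± 0.13 (adjusted p = 0.124). Ccne2, the other cyclin E, read 4.25, 4.09 and 4.20 in control, 4.52, 4.39 and 4.58 in the hub and 4.45, 4.50 and 4.23 at the LE. The hub was above control and the LE overlapped with it, at values under the 75th percentile of background. Its differences were 0.32 (adjusted p = 0.0771) and 0.21 (adjusted p = 0.141). E2f1, an activator of these genes, was 0.10 above control in the hub (adjusted p = 0.69) and -0.04 at the LE (adjusted p = 0.832). Dtl, which directs the destruction of Cdt1, differed by 0.23 in the hub (adjusted p = 0.276) and -0.09 at the LE (adjusted p = 0.613), and by -0.32 ± 0.10 between LE and hub, without overlap of the arrays (adjusted p = 0.0933). With the mean of all its probe sets in place of the brightest, Dtl was lower at the LE than in control (difference -0.39, adjusted p = 0.0127) and in the hub (-0.35, adjusted p = 0.0378). The probe set added by this mean read 5.44 on average, under the 75th percentile of background. Alone it differed from control by -0.68 ± 0.22 at the LE (adjusted p = 0.057) and -0.30 ± 0.22 in the hub (adjusted p = 0.557).

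**Figure D4:**
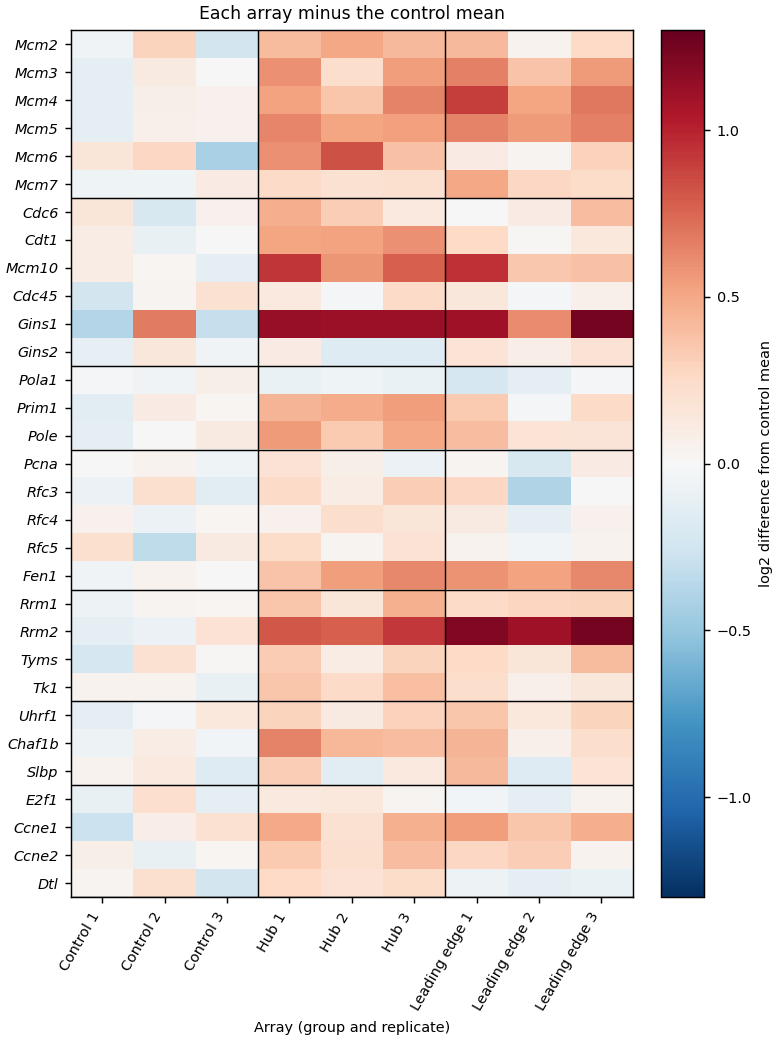
Log2 signal of each of the 31 genes (rows, by role) on each of the 9 arrays (columns) after subtraction of the gene's control mean. Red cells are above the control mean and blue cells below; the median over genes is 0.27, 0.09 and 0.24 on LE arrays 1 to 3 and 0.36, 0.22 and 0.39 on hub arrays 1 to 3.

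Arrays within a region did not contribute equally. Relative to the control means, the median over the 31 genes was 0.27, 0.09 and 0.24 on LE arrays 1 to 3 and 0.36, 0.22 and 0.39 on hub arrays 1 to 3, and it lay between -0.06 and 0.05 on the control arrays. LE array 2 gave the lowest LE value for 25 of the 31 genes, while it was lowest for 29.0% of all genes. Hub array 2 gave the lowest hub value for 19 of the 31, against 37.5% of all genes. LE array 2 also had the lowest LE mean of the myeloid (6.88), suprabasal (8.57), lymphocyte (6.13), endothelial (6.35) and fibroblast (6.40) markers. It was not the lowest LE array for the basal, bulge, Langerhans or melanocyte markers. Without it the median difference between LE and control was 0.29, against 0.21 with all arrays.

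Of 55 further replication genes measured from a list of 62, 6 rose and 0 fell in the hub, with a median difference of 0.14, and 8 rose and 2 fell at the LE, with a median of 0.06. The share that rose was 10.9% in the hub, where it was 4.16% over all genes, and 14.5% at the LE, close to the 11.9% over all genes. Wdhd1, a fork protein that links helicase and polymerase α, rose by 0.65 ± 0.07 in the hub (adjusted p = 0.000789) and 0.51 ± 0.07 at the LE (adjusted p = 0.000612). Gmnn, which encodes geminin, the inhibitor of Cdt1, rose by 0.76 ± 0.15 (adjusted p = 0.0154) and 0.97 ± 0.15 (adjusted p = 0.00124). The firing factor Ticrr (0.78) and the origin subunit Orc6 (0.36) rose in the hub, and Dbf4, which activates the kinase Cdc7, rose at the LE by 1.09. Between LE and hub, Cdk6, a G1 kinase, was higher at the LE by 0.37 ± 0.08 (adjusted p = 0.0127), and E2f2, an activator like E2f1, was lower, with a difference of -0.90 ± 0.18 (adjusted p = 0.0101). E2f2 had also fallen at the LE against control, by 0.74 (adjusted p = 0.0141).

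Of 29 mitosis genes, 6 were higher and 0 lower in the hub than in control, and 15 were higher and 1 lower at the LE. The shares higher were 20.7% in the hub and 51.7% at the LE, against 4.16% and 11.9% over all genes, and the median differences were 0.19 and 0.47. Cdca8, Plk1 and Ttk, which act at kinetochores and centromeres, rose by 0.85, 0.78 and 0.74 at the LE and by 0.57, 0.54 and 0.67 in the hub, and Cdc20, an activator of the anaphase-promoting complex, rose by 0.44 in the hub. Nusap1, a spindle protein, fell by 0.77 at the LE. Between LE and hub 3 mitosis genes were higher at the LE, Anln (0.56), Ube2c (0.46) and Aurka (0.30), and 0 were lower. The share higher was 10.3%, against 5.39% over all genes, where 5.23% were lower. The median difference was 0.22. The corresponding median of the 31 replication genes was -0.10. This opposite sign of the medians was not tested.

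Genes that hold the cell cycle back moved in both directions. Of 19, 2 rose and 3 fell in the hub, and 4 rose and 7 fell at the LE. That is 10.5% higher and 15.8% lower in the hub, against 4.16% and 3.12% over all genes, and 21.1% higher and 36.8% lower at the LE, against 11.9% and 10.8%. E2f7 and E2f8, atypical E2Fs that repress E2F targets, rose by 1.70 and 0.96 in the hub and by 2.72 and 1.38 at the LE. The antiproliferative genes Btg2 and Ccng2 fell by 1.11 and 0.87 in the hub, and Btg2 and Gas1 fell by 1.46 and 1.06 at the LE. Between LE and hub, E2f7 (1.01) and the Cdk inhibitor Cdkn1a (0.47) were higher at the LE, and Gas1 (-0.82) and the Cdk inhibitor Cdkn2b (-0.81) were lower. The members and these lists were compared by counts and medians alone.

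**Figure D5:**
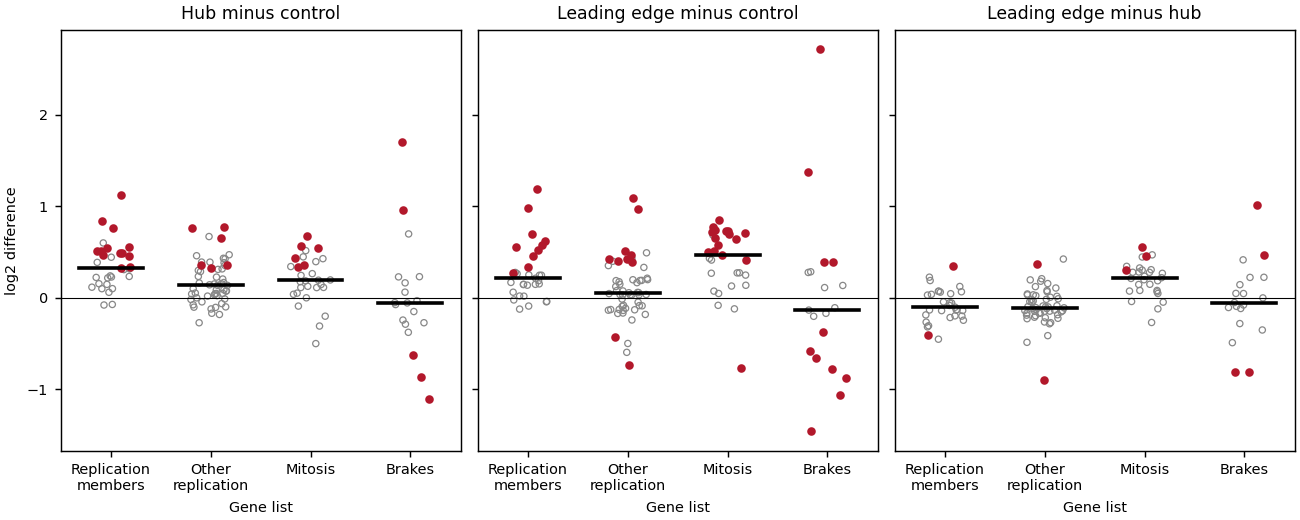
Log2 difference (vertical axis) of single genes in 4 lists for the 3 contrasts of regions. Filled points passed the adjusted threshold, open points did not, and black bars are list medians, which are 0.33, 0.21 and -0.10 for the 31 replication genes and 0.19, 0.47 and 0.22 for the mitosis genes.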

How the data were processed

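RNA of sorted cells was amplified and hybridised to Affymetrix mouse PM strip arrays, 1 per sample. Background correction, quantile normalization across arrays and summary of probes were done by the authors with RMA (version not given in the sources), and the deposited values are log2 signals. A change of total RNA cannot be measured after this step, and differences of dim genes are compressed. Array medians were 6.47 to 6.53, correlations 0.989 to 0.995 within groups and 0.961 to 0.987 between them, and 0 pairs of arrays were identical. The number of arrays limits the precision, and no count or depth applies.

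The table held 45141 probe sets, of which the 28898 annotated with exactly 1 gene symbol were kept. The remainder were 104 controls, 551 with several symbols and 15588 without one. For each gene the probe set of highest mean signal was used, which left 17097 genes with no filter on low values. All 31 members were found in RefSeq under the same symbol. Groups came from the labels. Limma 3.58.1 in R 4.3.3 was fitted to all genes and arrays with group means (lmFit and eBayes, two-sided), and p-values were adjusted by Benjamini-Hochberg over the 17097 genes of each contrast. SE and 95% intervals are those of limma. The study's methods name a 2-fold rule and no test, so the fold rule was an alternative, beside a replicate block, array weights, a variance trend, repeated normalization, median centring, the mean of all probe sets, a filter on dim genes, fits on 6 arrays and leaving out each array. The procedure was tested on simulated data.

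Every member is named, and all 9 values are given for the 2 members of each role with the largest difference from control and for members called between LE and hub. From the other lists up to 4 called genes with the largest differences are named per contrast. The members and lists were chosen with earlier results of these data known. The methods describe pools of 5 mice for an earlier set of samples, and whether these arrays were pooled is not stated there.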

Additional observations from a re-analysis of the deposited data

Results flagged for a closer look

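For 11 genes the difference from control at the LE differed from that in the hub by the direct test of LE against hub (limma, adjusted p under 0.05). The shares called in this test were 6.45% of the members and 3.64% of the other replication genes. They were 10.3% of the mitosis genes and 21.1% of the genes that hold the cycle back, against 10.6% over all genes. The contrasts share the control arrays, and with 3 arrays in a group no array was tested for standing apart. Among the replication members, Rrm2 differed by 0.35 (adjusted p = 0.0406) and Cdt1 by -0.40 (adjusted p = 0.0132). Among the other replication genes, E2f2 differed by -0.90 (LE -0.74 and hub 0.17 against control) and Cdk6 by 0.37 (0.47 and 0.10). Among the mitosis genes, Anln differed by 0.56 (0.47 and -0.09), Ube2c by 0.46 (0.72 and 0.26) and Aurka by 0.30 (0.64 and 0.34). Among the genes that hold the cycle back, E2f7 differed by 1.01 (2.72 and 1.70), Gas1 by -0.82 (-1.06 and -0.24), Cdkn2b by -0.81 (-0.11 and 0.70) and Cdkn1a by 0.47 (0.40 and -0.07).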

How the results depend on the processing

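The median difference of the 31 genes kept its sign under every alternative, and leaving out 1 array moved it between 0.31 and 0.38 (hub against control), 0.16 and 0.29 (LE against control) and -0.12 and -0.06 (LE against hub). The number of genes called was less stable. Leaving out 1 array gave 4 to 12 calls for the hub, 5 to 10 for the LE and 0 to 4 between them, from 13, 10 and 2, and groups that did not overlap numbered 19 to 23, 11 to 19 and 6 to 12, from 19, 11 and 6. Leaving out an array can only keep or raise the number of genes whose groups do not overlap. This holds for every gene on the arrays, and the share over all genes was not counted for these fits. The higher counts are therefore no result about the members. Such fits have fewer arrays. In all 9 of them Mcm5, Cdt1, Fen1 and Rrm2 stayed called in the hub, and Mcm3, Mcm4, Mcm5, Fen1 and Rrm2 at the LE, whereas 0 genes did between LE and hub. The lowest counts came without hub arrays 1 or 3 (4 calls each, hub) and without LE array 1 (5 calls, LE). The fold rule, which asks for over 2-fold in every pair of the same number, called 0, 1 and 0 genes, and an adjusted p with at least 2-fold called 1, 1 and 0. Array weights called 11, 7 and 4 genes: the hub calls of Mcm3 and Rrm1 and the LE calls of Mcm10, Gins1 and Rrm1 were lost (adjusted p = 0.0552 to 0.0625), and Prim1 and Dtl became lower at the LE than in the hub. Repeated quantile normalization called 1 gene between LE and hub. These causes were not tested.

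Of the genes with all values given, differences changed sign only where they were small and not called. Between LE and hub this held for Uhrf1 with array weights (-0.023), without LE array 1 (-0.021) and without hub array 2 (-0.029, highest 0.094), and for Mcm5 with the mean of all probe sets (-0.032). It also held for Gins1 without LE array 2 (0.052, lowest -0.26), Fen1 without hub array 1 (-0.0021, highest 0.12) and Ccne1 without hub array 2 (-0.021, highest 0.13). Between LE and control it held for Rfc3 (-0.20 to 0.13) without LE array 2 or control array 2. The cause was not tested.

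The replicate numbers did not pair the arrays: the 9 correlations of same-numbered deviations ran from -0.18 to 0.08. With the replicate block 9, 9 and 2 genes were called. The hub calls of Mcm3 (adjusted p = 0.0721), Gins1 (0.0663), Rrm1 (0.0762) and Tk1 (0.0545) and the LE call of Rrm1 (0.0663) were lost.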
